A study of Mus musculus with 16 samples.

Results

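The 10 genes described here encode enzymes and a receptor of the prostaglandin and leukotriene pathways, and they were taken by symbol from a table of read counts for 24411 genes. They are Ptgs1, Ptgs2, Ptges, Hpgds, Tbxas1, Hpgd, Alox5, Alox5ap, Ltc4s and Ltb4r1, and each symbol had 1 row. RNA was sequenced from brain macrophages of 8 bone marrow chimeras, in which irradiated (950 cGy) C57BL/6J wild-type mice had received congenic wild-type marrow carrying the CD45.1 allele. From each brain, Ly6C/G-negative, CD11b+ cells were sorted as graft-derived cells with low CD45.1 (engrafted cells) or as recipient microglia with low CD45.2 (host microglia). Mice 1 to 4 received lipopolysaccharide (LPS, a bacterial cell wall component, 2.5 mg/kg) 12 h before analysis and mice 5 to 8 were left untreated, which gave 4 groups of 4 libraries. Host microglia of every group had been irradiated along with the recipient, the control mice were not injected, and the labels give an interval after transplantation of 3.5 or 9 months without assigning it to single libraries.

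Prostanoids and leukotrienes are short-range lipid signals made from arachidonic acid, a fatty acid that phospholipases release from membranes. The cyclooxygenases convert it to an unstable prostaglandin intermediate, which terminal synthases turn into prostaglandin E2, prostaglandin D2 or thromboxane, and a dehydrogenase inactivates prostaglandins inside cells. On the other branch, a lipoxygenase and its partner protein start leukotriene synthesis, and leukotriene B4 attracts and activates myeloid cells through its receptor. In the brain, microglia are known as a source of cyclooxygenase and thromboxane synthase activity, and the inducible enzymes of the prostaglandin E2 branch are known to respond to LPS.

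After LPS, 11.3% of all genes tested were lower in engrafted cells and 10.4% in host microglia (more than 2-fold, edgeR adjusted p below 0.05). Of 8 members tested in engrafted cells and 7 in host microglia, 3 of the prostanoid branch were lower by these thresholds in both populations. These were Hpgd, the prostaglandin-inactivating dehydrogenase, Hpgds, the hematopoietic prostaglandin D synthase, and Tbxas1, the thromboxane synthase. Ltb4r1, the high-affinity receptor for leukotriene B4, was 50.5-fold higher after LPS in engrafted cells and stayed near the limit of detection in host microglia. Ptgs1, the constitutive cyclooxygenase, was lower in engrafted cells than in host microglia with and without LPS, and Ltc4s, the leukotriene C4 synthase, was lower in engrafted cells without LPS. Ptges, the inducible prostaglandin E synthase, and Ptgs2, the inducible cyclooxygenase, stayed below the filter on low counts. Ptges had 76 reads in engrafted cells after LPS and 3 without. These libraries did not overlap in CPM, but the lowest after LPS (mouse 4) held 2 reads, below the limit of detection.

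Libraries held 395283 to 1203597 reads on genes (median 820588), and the engrafted LPS library of mouse 4 was the shallowest. Levels are given as CPM (read counts scaled to a common library size) after TMM scaling, a correction for differences in library composition. A count of 3 reads, taken as the limit of detection, equalled 2.34 to 8.73 CPM depending on the library, which covers counting error only. The libraries are tagged at the 3′ end, so levels of different genes are not compared. All 10 markers of the microglia list (P2ry12, Tmem119, Cx3cr1 and others) were above 3 reads in at least 1 library of every group. Their summed level was 21540 to 23790 CPM in untreated host microglia, 9179 to 10530 CPM in host microglia after LPS, 15490 to 16850 CPM in untreated engrafted cells and 4919 to 6239 CPM in engrafted cells after LPS. Of these markers, Sall1 was at 285 to 353 CPM in untreated host microglia and 73.9 to 122 CPM after LPS. In engrafted cells Sall1 was at 3.48 to 26.0 CPM without and 2.91 to 12.8 CPM with LPS. The summed level of 12 neutrophil markers was 276 to 1277 CPM in untreated engrafted cells, 49.2 to 506 CPM in engrafted cells after LPS and at most 15.6 CPM in any host library. The summed level of 8 perivascular macrophage markers was 794 to 1039 CPM in engrafted libraries and 23.3 to 38.3 CPM in host libraries, and their part in the differences between the populations was not tested. For 9 platelet markers the sum was 155 to 230 CPM in untreated host microglia and 60.05 to 103 CPM after LPS. In engrafted cells it was 33.8 to 64.3 CPM without and 19.75 to 39.7 CPM with LPS. Gp9 made up 126 to 172 CPM in untreated host microglia, where 6 of the 9 were at 3 reads or fewer in every library. The part of platelet marker expression in the Ptgs1 and Tbxas1 results was not tested. Red blood cell markers set the libraries of mice 4 and 8 apart, with sums of 4462 and 2965 CPM in engrafted cells and 556 and 505 CPM in host microglia, against at most 115 CPM in any other library. Without the engrafted LPS library of mouse 4, the LPS effects in engrafted cells were 5.47 for Ltb4r1, -3.51 for Hpgd, -2.10 for Hpgds and -1.70 for Tbxas1 on the log2 scale, all called. In these bulk samples, fewer cells of a type and less RNA per cell cannot be told apart.

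The promoter stretches of the genes with the largest rise and the largest fall after LPS (Ltb4r1 and Hpgd), and of the cyclooxygenase that differed between the populations (Ptgs1), are shown to place these genes in the genome. Each is the 250 bases before the gene start of the count table, read 5′ to 3′ on the strand of the gene from the NCBI37 (mm9) genome, and none overlaps an annotated exon. Ltb4r1 starts at chr14:56384799 (plus strand, window chr14:56384549-56384798), Hpgd at chr8:58773349 (plus strand, window chr8:58773099-58773348) and Ptgs1 at chr2:36085946 (plus strand, window chr2:36085696-36085945). Capitals mark the only match in these windows to the motifs searched, a PU.1 site in Ptgs1, 24 to 17 bases before the start.
Ltb4r1: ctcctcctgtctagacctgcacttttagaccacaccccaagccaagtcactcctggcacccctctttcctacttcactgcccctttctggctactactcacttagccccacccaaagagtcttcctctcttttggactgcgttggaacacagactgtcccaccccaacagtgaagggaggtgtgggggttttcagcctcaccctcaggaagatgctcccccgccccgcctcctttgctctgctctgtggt
Hpgd: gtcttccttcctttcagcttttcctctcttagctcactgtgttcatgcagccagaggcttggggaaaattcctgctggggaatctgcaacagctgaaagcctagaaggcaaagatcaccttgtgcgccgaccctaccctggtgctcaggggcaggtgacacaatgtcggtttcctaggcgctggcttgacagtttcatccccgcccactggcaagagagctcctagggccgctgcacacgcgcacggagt
Ptgs1: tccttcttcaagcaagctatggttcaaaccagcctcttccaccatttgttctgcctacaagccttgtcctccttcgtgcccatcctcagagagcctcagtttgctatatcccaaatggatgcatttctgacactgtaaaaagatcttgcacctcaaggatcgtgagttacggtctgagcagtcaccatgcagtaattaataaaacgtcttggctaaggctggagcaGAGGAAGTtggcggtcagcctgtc
The motifs were searched on both strands, with no overlap between matches to different motifs in these windows. They were NF-kB (by name, since its letters are ambiguous), AP-1 (TGANTCA), PU.1 (GAGGAAGT), C/EBP (TTGCNNAA) and the TATA box (TATAAA). Of 24338 windows of the same length, 2.35% held the PU.1 letters, 8.8% the C/EBP letters and 4.08% the NF-kB motif. The AP-1 letters were in 6.16% of these windows and the TATA letters in 12.0%. Among the 10 members, 2 windows held PU.1 letters (Ptgs1 and Hpgds), 2 held C/EBP letters (Ptgs2 and Hpgds), 1 held AP-1 and TATA letters (Tbxas1), and none held the NF-kB motif. The windows of the members not printed, apart from Alox5 and Alox5ap, overlap annotated exons.

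**Figure D1:**
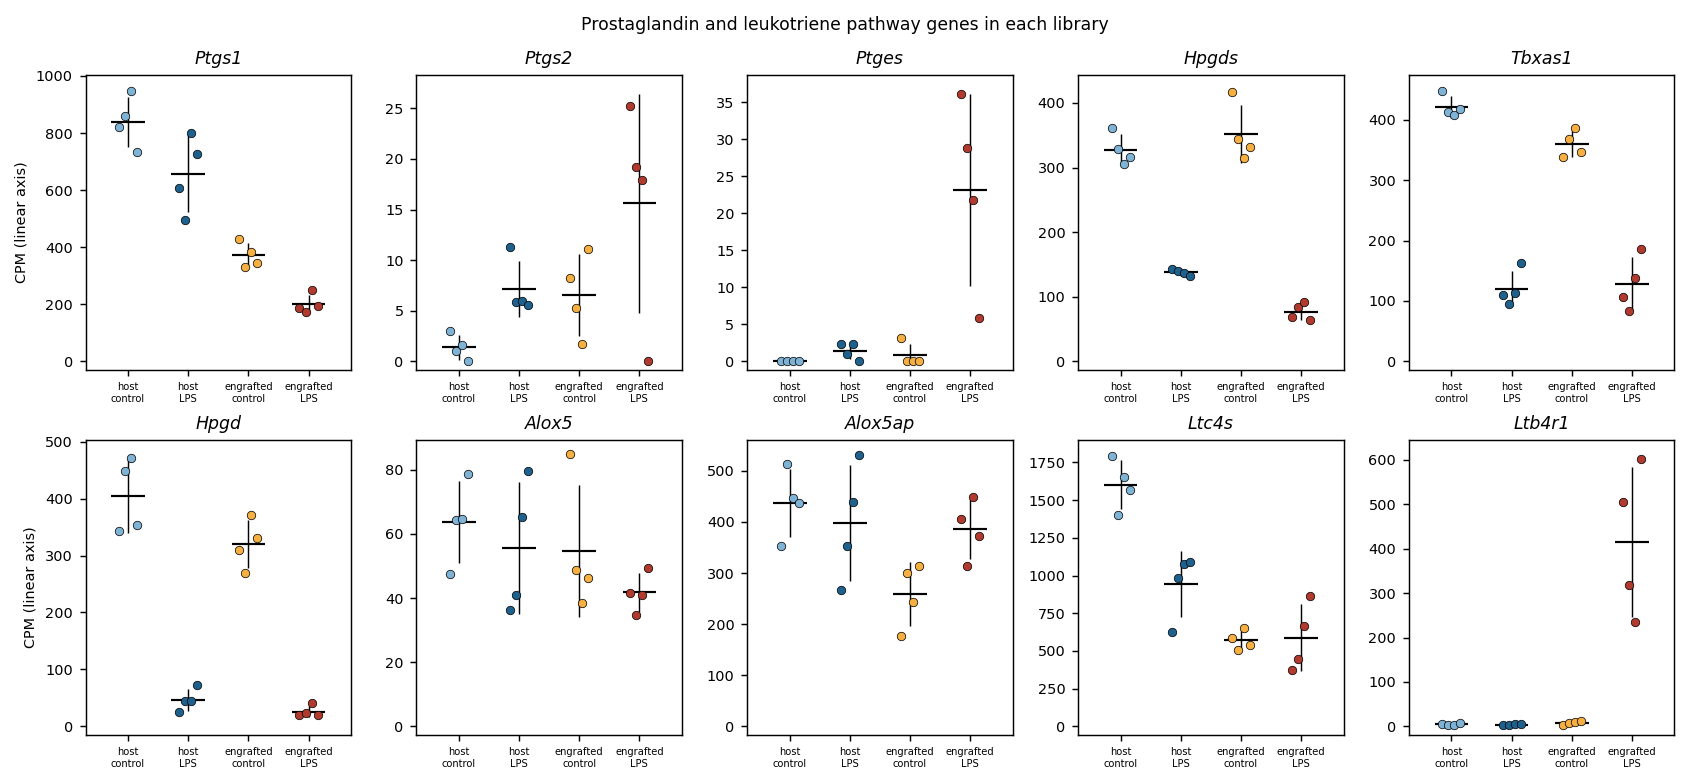
Level of each member in each library, in CPM on a linear axis that differs between panels. Points are single libraries ordered by mouse, horizontal lines are group means and vertical lines are ± 1 SD (n = 4, cut at 0). Hpgd, Hpgds and Tbxas1 lie lower after LPS in both populations, whereas the engrafted LPS libraries of Ltb4r1 lie at 236 to 602 CPM, above all other libraries.

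Which members differed between the populations, and which responded to challenge, was tested with edgeR across all genes that passed a filter on low counts. A gene was called at more than 2-fold and an adjusted p below 0.05. Without LPS, 7 of the 10 members passed the filter, and engrafted cells were called higher than host microglia in 0 of them and lower in 2 (Ptgs1 and Ltc4s), against 6.25% of all genes tested called higher and 4.73% called lower. After LPS, 8 members passed, of which 1 was called higher in engrafted cells (Ltb4r1) and 1 lower (Ptgs1), against 6.73% and 4.34% of all genes. LPS in engrafted cells gave 1 member called higher (Ltb4r1) and 3 lower (Hpgd, Hpgds and Tbxas1) of 8, against 10.2% and 11.3% of all genes. LPS in host microglia gave 0 called higher and 3 lower (Hpgd, Hpgds and Tbxas1) of 7, against 7.66% and 10.4% of all genes. The difference between the LPS effects of both populations (the interaction) was called for 1 of 8 members, Ltb4r1, in the direction of a larger rise in engrafted cells, and for 0 in the other direction, against 2.45% and 2.5% of all genes. The median log2 fold change of the members tested was -0.34, -0.55, -0.67 and -0.77 in the 4 comparisons in that order and 0.03 in the interaction, where all genes tested had medians of 0.02, -0.01, -0.01, 0.01 and -0.04. The filter was not passed by Ptgs2 and Ptges in any comparison, or by Ltb4r1 in those without engrafted LPS libraries. Except in the interaction and where Ptges was at 3 reads or fewer in every library, these had their CPM set against each other in an exact permutation test (two-sided), whose smallest possible p with 4 libraries against 4 is 0.029. The comparisons share groups with each other, so their values are set side by side.

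**Figure D2:**
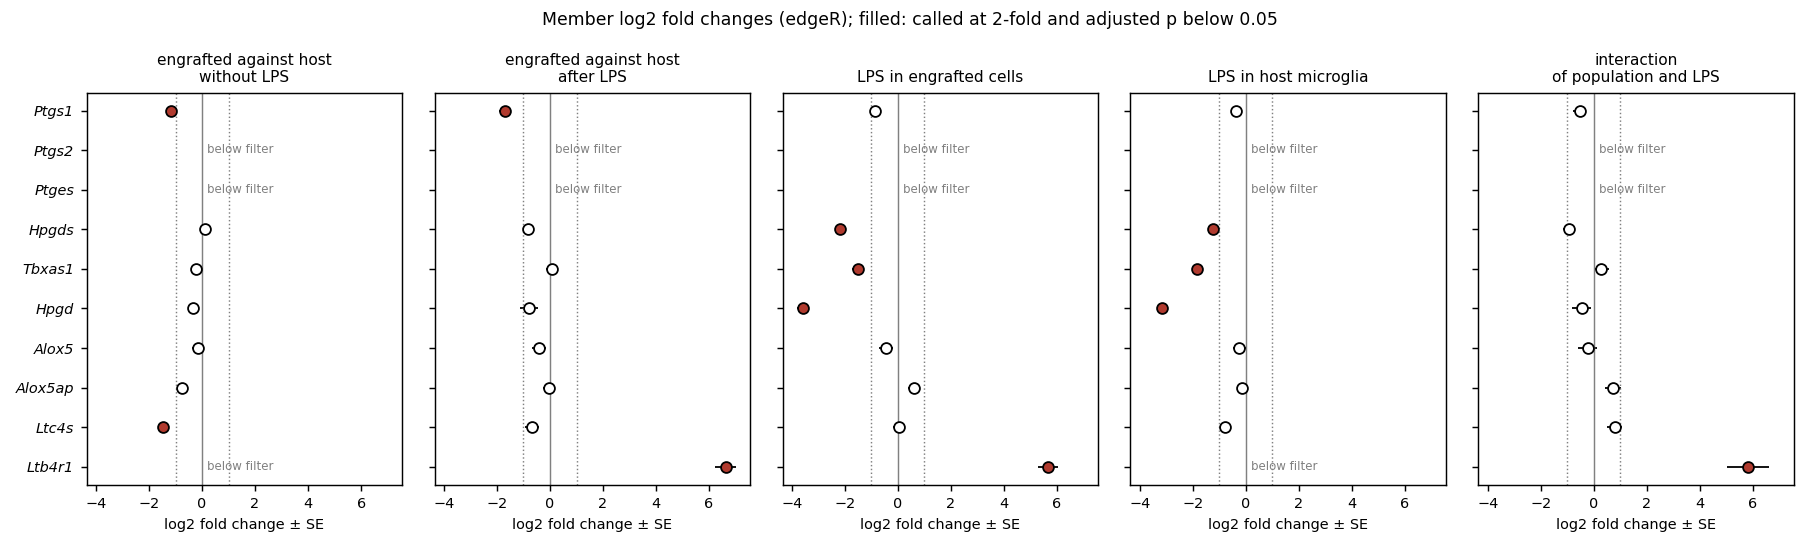
Log2 fold change of each member in the 5 comparisons (horizontal axis, ± SE from edgeR). Filled points were called, dotted lines mark a 2-fold change, and members that did not pass the filter are marked as such. Hpgd, Hpgds and Tbxas1 are filled to the left for LPS in both populations, and Ltb4r1 is filled to the right wherever engrafted LPS libraries enter.

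Ptgs1 (chr2:36085946-36107791, plus strand) encodes the cyclooxygenase that cells make without stimulation. In untreated host microglia it measured 819.7, 859, 946 and 735 CPM in mice 5 to 8, and in engrafted cells of the same mice 427, 330.3, 382 and 343 CPM. The groups did not overlap, and the level in engrafted cells was 44.1% of that in host microglia (log2 fold change -1.17, SE 0.12, edgeR adjusted p = 3.9e-08). After LPS, host microglia of mice 1 to 4 held 606, 494, 801 and 726 CPM and engrafted cells 188, 173, 248.5 and 192 CPM. Every engrafted library again lay below every host library, and the log2 fold change was -1.70 (SE 0.21, edgeR adjusted p = 1.37e-05). The LPS effect itself was -0.88 on the log2 scale in engrafted cells (SE 0.18, edgeR adjusted p = 0.000741), which passed the p threshold but not the 2-fold threshold. Without the engrafted LPS library of mouse 3 this value was -1.0 and was called. In host microglia the LPS effect was -0.36 (edgeR adjusted p = 0.0696), and the interaction was -0.53 (SE 0.24, edgeR adjusted p = 0.221).

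Ptgs2 (chr1:151947161-151955364, plus strand) encodes the inducible cyclooxygenase. It was at 2.97, 0.962, 1.56 and 0 CPM in untreated host microglia and at 11.3, 5.84, 5.94 and 5.59 CPM in host microglia after LPS. These groups did not overlap (exact permutation p = 0.0286), with 25 reads after LPS against 5 reads without, a ratio of rates of 5.75 (95% interval 2.16 to 19.2, counting error only). In engrafted cells it was at 8.19, 5.22, 1.68 and 11.1 CPM without LPS and at 25.2, 19.2, 17.9 and 0 CPM after LPS. The library at 0 was the shallowest one, that of mouse 4, in which 3 reads equal 8.73 CPM, and with it the groups overlapped (exact permutation p = 0.2, ratio of rates 2.76, 95% interval 1.59 to 5.01). Between engrafted cells and host microglia, the ratio of rates was 5.34 without LPS (95% interval 1.91 to 18.4, exact permutation p = 0.0571) and 2.57 after LPS (95% interval 1.57 to 4.31, exact permutation p = 0.143). In the edgeR test without the filter, Ptgs2 was called higher after LPS in host microglia (log2 fold change 2.41, edgeR adjusted p = 0.00608) and in engrafted cells (1.43, edgeR adjusted p = 0.0191), and, after LPS, in engrafted cells over host microglia (1.29, edgeR adjusted p = 0.0223).

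Among the terminal synthases, Ptges (chr2:30744991-30758817, minus strand) encodes the inducible enzyme that makes prostaglandin E2. Untreated engrafted cells held 3.07 CPM in mouse 5 and 0 in mice 6 to 8, and engrafted cells after LPS held 36.2, 28.8, 21.8 and 5.82 CPM in mice 1 to 4. The groups did not overlap in CPM (exact permutation p = 0.0286). They held 76 reads after LPS and 3 reads without, a ratio of rates of 23.7 (95% interval 7.82 to 118). The value of mouse 4 was 2 reads in the shallowest library, where 3 reads equal 8.73 CPM, against 3 reads in untreated mouse 5. This separation thus rests on a value below the limit of detection. Host microglia after LPS held 2.26, 0.973, 2.38 and 0 CPM, all at or below 2 reads, and untreated host microglia held no read, which allows up to 3 reads, or 2.34 to 4.45 CPM, in each library. After LPS the engrafted libraries thus all lay above the host libraries in CPM (exact permutation p = 0.0286). They held 76 reads against 5, a ratio of rates of 18.4 (95% interval 7.55 to 58.3). Here too the separation rests on engrafted mouse 4, whose 2 reads matched the count in host microglia of mice 1 and 3. In the edgeR test without the filter, Ptges was called higher after LPS in engrafted cells (log2 fold change 4.37, edgeR adjusted p = 1.58e-10). Its interaction did not pass (0.99, SE 1.55, edgeR adjusted p = 0.951). With no read in untreated host microglia and 5 after LPS, the interaction cannot decide whether the LPS effects differ.

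Hpgds (chr6:65067287-65094724, minus strand) encodes the synthase that makes prostaglandin D2 in cells of hematopoietic origin. Untreated engrafted cells held 418, 344, 315 and 332 CPM and untreated host microglia 362, 328, 305 and 316.5 CPM, groups that overlapped (log2 fold change 0.12, SE 0.13, edgeR adjusted p = 0.555). After LPS the level was 68.0, 84.1, 90.9 and 64.0 CPM in engrafted cells and 143, 140.1, 137 and 131 CPM in host microglia. All LPS libraries lay below all untreated ones, and all engrafted LPS libraries lay below the host LPS libraries. Hpgds fell to 21.8% of its untreated level in engrafted cells (log2 fold change -2.18, SE 0.19, edgeR adjusted p = 2.2e-08) and to 42.0% in host microglia (-1.25, SE 0.14, edgeR adjusted p = 2.9e-07). The difference between these falls had a log2 value of -0.94 (SE 0.23, edgeR adjusted p = 0.012), below the p threshold but within 2-fold, and was -1.01 without the engrafted LPS library of mouse 3. After LPS, engrafted cells stood at 55.7% of the host level (-0.82, SE 0.18, edgeR adjusted p = 0.00284), also within 2-fold.

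Tbxas1 (chr6:38868985-39034578, plus strand) encodes the synthase that makes thromboxane, which contracts vessels and activates platelets. It was at 339, 368.5, 387 and 347 CPM in untreated engrafted cells and at 106, 82.9, 137 and 186 CPM in engrafted cells after LPS. In host microglia it was at 448, 413, 409 and 417 CPM without LPS and at 109.5, 95.3, 113 and 162 CPM after LPS. LPS libraries lay below untreated ones in both populations, at 35.6% of the untreated level in engrafted cells (log2 fold change -1.52, SE 0.21, edgeR adjusted p = 1.23e-05) and at 28.4% in host microglia (-1.83, SE 0.16, edgeR adjusted p = 1.01e-08). The populations overlapped after LPS (log2 fold change 0.07, SE 0.24, edgeR adjusted p = 0.89), and the interaction was 0.29 (SE 0.28, edgeR adjusted p = 0.627).

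Hpgd (chr8:58773349-58799843, plus strand), whose product oxidizes and thereby inactivates prostaglandins, had the largest fall among the members in both populations. Untreated engrafted cells held 309, 269.5, 370.4 and 330.1 CPM and engrafted cells after LPS 19.8, 22.8, 40.99 and 20.4 CPM. Untreated host microglia held 344, 449, 470.5 and 354 CPM and host microglia after LPS 26.0, 43.8, 44.0 and 72.6 CPM. No LPS library came near an untreated one, and Hpgd was left at 8.13% of its untreated level in engrafted cells (log2 fold change -3.58, SE 0.23, edgeR adjusted p = 4.78e-10) and at 11.5% in host microglia (-3.15, SE 0.21, edgeR adjusted p = 2.07e-10). Leaving out single libraries kept these values between -3.90 and -3.43 and between -3.41 and -2.94, all called. The populations overlapped without LPS (log2 fold change -0.34, edgeR adjusted p = 0.0777) and after it (-0.79, SE 0.33, edgeR adjusted p = 0.119), but without the engrafted LPS library of mouse 3 the latter was -1.10 and called (edgeR adjusted p = 0.0411). The interaction was -0.46 (SE 0.35, edgeR adjusted p = 0.519). The summed microglia markers moved in the same direction as Hpgd, Hpgds and Tbxas1 after LPS, as given above, and their part in these falls was not tested.

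On the leukotriene branch, Alox5 (chr6:116360089-116411196, minus strand) encodes the lipoxygenase that starts leukotriene synthesis. It was measured at 34.8 to 85.0 CPM across the 16 libraries, all 4 groups overlapped, and its log2 fold changes of -0.46 to -0.17 in the 4 comparisons, with SE of 0.22 to 0.27, did not pass the edgeR test (adjusted p of 0.17 or more). Alox5ap (chr5:150076580-150099729, plus strand), whose membrane protein hands arachidonic acid to that lipoxygenase, was at 177, 301, 243 and 313 CPM in untreated engrafted cells and at 353, 514, 447 and 436 CPM in untreated host microglia. These did not overlap (log2 fold change -0.77, SE 0.16, edgeR adjusted p = 0.0006), within 2-fold. After LPS engrafted cells held 406, 313.5, 449.6 and 372.5 CPM, and the lowest of these was level with the highest untreated engrafted library (log2 fold change 0.59, SE 0.20, edgeR adjusted p = 0.0271, within 2-fold). In host microglia after LPS it ranged from 266 to 532 CPM and overlapped the untreated libraries (-0.15, edgeR adjusted p = 0.531). The interaction was 0.72 (SE 0.29, edgeR adjusted p = 0.149), and with the mouse as a replicate block it was 0.77 (edgeR adjusted p = 0.041), still within 2-fold.

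Ltc4s (chr11:50049963-50052034, minus strand) encodes the enzyme that joins leukotriene A4 to glutathione, the step to the cysteinyl leukotrienes. Untreated host microglia held 1791, 1403, 1651 and 1566 CPM and untreated engrafted cells 587, 509, 650.2 and 538 CPM. The groups were apart by more than their spread, with engrafted cells at 35.6% of the host level (log2 fold change -1.48, SE 0.12, edgeR adjusted p = 2.09e-10). After LPS host microglia held 628, 985, 1079 and 1088 CPM (log2 fold change -0.77, SE 0.16, edgeR adjusted p = 0.000661, within 2-fold), whereas engrafted cells spread from 374 to 862 CPM around their untreated level (0.04, SE 0.23, edgeR adjusted p = 0.918). Engrafted and host libraries overlapped after LPS (log2 fold change -0.68, SE 0.26, edgeR adjusted p = 0.087), and with the mouse as a replicate block the value was -0.72 (edgeR adjusted p = 0.00605, within 2-fold). The interaction was 0.79 (SE 0.29, edgeR adjusted p = 0.117), and 0.76 (edgeR adjusted p = 0.0224) with that block. The noncoding gene Gm16641 overlaps Ltc4s on the opposite strand, and reads were counted on the sense strand. The RefSeq model counted for Ltc4s is itself a noncoding transcript record of the gene.

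Ltb4r1 (chr14:56384799-56387329, plus strand) showed the largest difference of all members. Its product is a G protein-coupled receptor through which leukotriene B4 draws neutrophils and other leukocytes to a site. Engrafted cells after LPS held 505, 318, 236 and 602 CPM in mice 1 to 4, against 3.07, 8.69, 10.1 and 12.98 CPM in untreated engrafted cells of mice 5 to 8. Host microglia held 4.45, 3.85, 3.12 and 7.06 CPM without LPS and 3.39, 2.92, 4.75 and 5.59 CPM after it, which is 3 to 7 reads per library. Every engrafted LPS library thus lay far above the other 12 libraries, which overlapped one another. The LPS effect in engrafted cells was 5.66 on the log2 scale (SE 0.37, edgeR adjusted p = 5.11e-10), and after LPS engrafted cells were higher than host microglia by 6.62 (SE 0.38, edgeR adjusted p = 1.04e-09), a 98.5-fold difference. The pooled reads, 1116 against 14, gave a ratio of rates of 96.5 (95% interval 57.3 to 177, counting error only). The interaction was 5.82 (SE 0.78, edgeR adjusted p = 2.13e-05), and leaving out single libraries kept it between 5.42 and 6.08. Ltb4r1 passed the filter only through the engrafted LPS libraries in which it was high, and a filter of 10 reads in every library left it untested. It had 184 to 460 reads per library in engrafted cells after LPS and 3 to 7 in every other library. In host microglia, 14 reads after LPS against 18 without gave a ratio of rates of 0.894 (95% interval 0.411 to 1.90, exact permutation p = 0.714), so no change was detectable at this depth. Without LPS, 21 reads in engrafted cells against 18 in host microglia gave 1.73 (95% interval 0.879 to 3.45, exact permutation p = 0.143).

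Because leukotriene B4 receptors are known from circulating myeloid cells, the marker lists of those cells are set beside Ltb4r1. The summed level of 8 monocyte markers in engrafted cells was 181, 266, 235 and 308 CPM without LPS and 2448, 1942, 1722 and 1179 CPM after LPS, while it was at most 54.5 CPM in any host library. Markers of the list that were higher after LPS included Ly6c2 (22.2 to 40.2 CPM without, 428 to 858 CPM with LPS) and F10 (1.74 to 6.70 CPM without, 180 to 424 CPM with LPS). Ccr2, the chemokine receptor that defines classical monocytes, was at 86.0 to 234 CPM without and at 31.2 to 61.5 CPM with LPS. None of the 8 markers was at or under 3 reads throughout the engrafted LPS group, compared with 2 of 8 in untreated engrafted cells. Among the engrafted LPS libraries, that of mouse 4 had the highest Ltb4r1 and the lowest monocyte sum. It was also the shallowest and was set apart by red blood cell markers, as given above. The summed neutrophil markers overlapped between untreated and LPS engrafted cells, and 5 of the 12 markers without LPS and 4 with LPS were at 3 reads or fewer in every library of the group. Those at 3 reads or fewer in both groups included Cxcr2, Mpo and Stfa2l1. In contrast, S100a9 was at 76.0 to 526 CPM without and 2.40 to 172 CPM with LPS. S100a8 was at 67.6 to 256 CPM without and 19.2 to 139 CPM with LPS. Without LPS, Ngp was at 11.1 to 211 CPM, Camp at 24.1 to 156 CPM and Ltf at 7.42 to 92.2 CPM. With LPS they reached at most 126, 37.8 and 14.1 CPM. Mmp8 was at 0 to 1.024 CPM without and 17.5 to 40.6 CPM with LPS. The part of monocyte or neutrophil marker expression in the Ltb4r1 result was not tested.

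**Figure D3:**
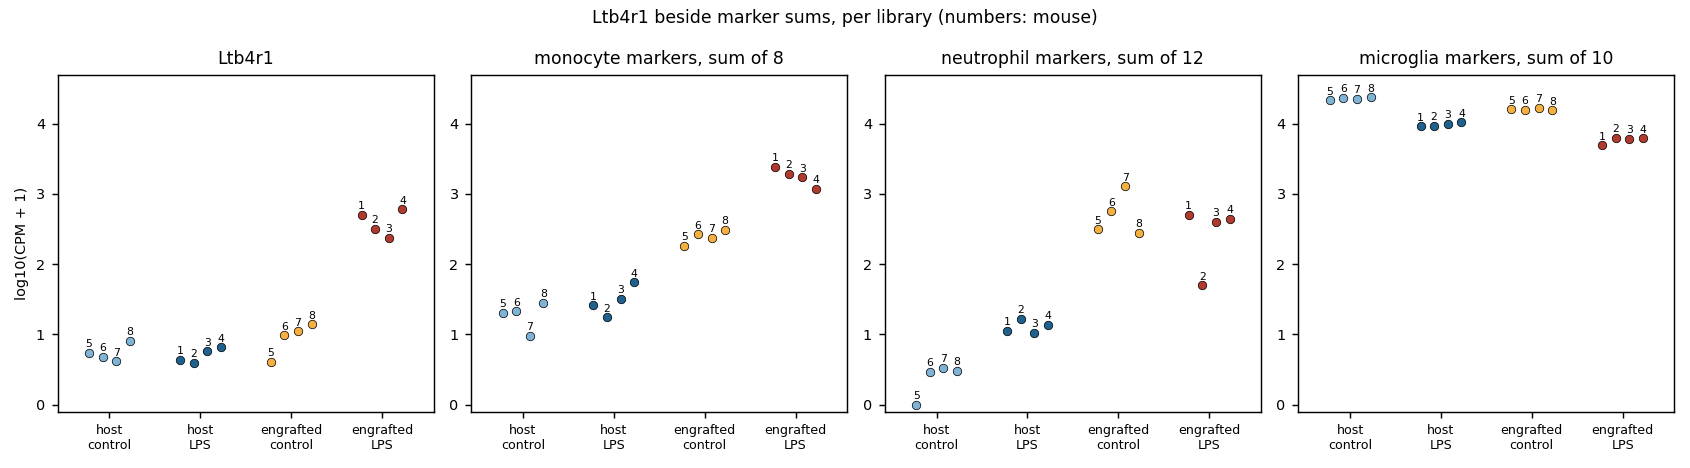
Ltb4r1 and the summed monocyte, neutrophil and microglia markers in each library, as log10 of CPM plus 1, with the mouse number above each point. Ltb4r1 and the monocyte sum (1179 to 2448 CPM) are both highest in engrafted cells after LPS, while the neutrophil sum there overlaps that of untreated engrafted cells.

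Around these members, 50 other genes of the pathway were followed, of which 22 passed the filter in at least 1 comparison and 20 stayed at 3 reads or fewer in every library. Without LPS, engrafted cells were called higher in 2 and lower in 5 of 19, and after LPS higher in 3 and lower in 3 of 19, where the shares of all genes given above were 6.25% and 4.73%, and 6.73% and 4.34%. LPS gave 2 higher and 6 lower of 19 in engrafted cells, against 10.2% and 11.3% of all genes, and 0 higher and 7 lower of 18 in host microglia, against 7.66% and 10.4%. The interaction was called in 0 upward and 3 downward of 21 (Pla2g6, Cyp4f18 and Ptger4), against 2.45% and 2.5% of all genes.

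Genes that release or supply arachidonic acid accounted for 4 of the 5 lower calls in engrafted cells without LPS and 3 of the 3 after LPS, and 3 of the 6 and 3 of the 7 lower calls for LPS in engrafted cells and in host microglia. In that order, they made up 6 of 19, 5 of 19, 5 of 19 and 6 of 18 genes tested. Of all genes, 4.73%, 4.34%, 11.3% and 10.4% were called lower in these comparisons. Others of these genes had higher values in engrafted cells without LPS. Pla2g6, a calcium-independent phospholipase, was 1.85-fold higher in engrafted cells (edgeR adjusted p = 0.0109, within 2-fold), and Pla2g2d, a secreted phospholipase below the filter, had 53 reads there against 3 in host microglia (ratio of rates 26.2, 95% interval 8.5 to 131, exact permutation p = 0.0286). Pla2g4a, the cytosolic phospholipase that frees arachidonic acid, was at 24.6 ± 5.71 CPM in untreated engrafted cells and 66.3 ± 4.82 CPM in untreated host microglia (SD, n = 4), and was lower in engrafted cells with and without LPS (log2 fold changes -1.23 and -1.40). Mgll, which hydrolyzes a monoacylglycerol to give arachidonic acid, fell after LPS from 72.9 ± 3.48 to 12.4 ± 1.11 CPM in engrafted cells (log2 fold change -2.52, edgeR adjusted p = 1.22e-07) and from 208 ± 31.1 to 32.7 ± 3.62 CPM in host microglia (-2.66, edgeR adjusted p = 1.58e-10). Daglb, a lipase that makes that monoacylglycerol, fell in both populations as well (log2 fold changes -1.65 and -1.27). Both were lower in engrafted cells than in host microglia, also after LPS.

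Of 9 prostanoid receptors, 1 passed the filter, and of 5 transport and inactivation genes tested without LPS, engrafted cells were called higher in 1 (Cyp4f18) and lower in 1 (Abcc1). The tested prostanoid receptor, Ptger4, which binds prostaglandin E2, was at 50.1 to 69.5 CPM in untreated engrafted cells and at 0 to 6.05 CPM in untreated host microglia (log2 fold change 4.55, SE 0.39, edgeR adjusted p = 7.26e-10), and after LPS at 32.0 to 67.9 CPM against 6.98 to 23.7 CPM (2.04, SE 0.33, edgeR adjusted p = 0.000173). Cyp4f18, an enzyme that oxidizes leukotriene B4, was at 236 ± 23.2 CPM in untreated engrafted cells and 16.6 ± 3.90 CPM in untreated host microglia (log2 fold change 3.82, SE 0.17, edgeR adjusted p = 2.87e-15). Their LPS effects differed between the populations, with interactions of -2.51 (edgeR adjusted p = 0.00981) and -1.54 (edgeR adjusted p = 0.0286). Ptger4 passed the filter only where engrafted libraries, in which it was high, entered, so its interaction rests on few host reads. In host microglia Ptger4 had 47 reads after LPS against 10 without (exact permutation p = 0.0286). Its LPS effect in engrafted cells was -0.15 (edgeR adjusted p = 0.621). Dpep2, a dipeptidase that processes cysteinyl leukotrienes, was at 25.2 to 55.3 CPM in engrafted cells after LPS against 0 to 9.27 CPM without (log2 fold change 3.27, edgeR adjusted p = 2e-05), and at most 2.79 CPM in any host library. It passed the filter only where these engrafted LPS libraries entered, with 105 reads in them against 10 in untreated engrafted cells. Cysltr1, a receptor of cysteinyl leukotrienes, fell after LPS in engrafted cells (-1.79, edgeR adjusted p = 0.000194) and in host microglia (-1.55, edgeR adjusted p = 0.000116). Among the other calls, Abcc1, an exporter of leukotriene C4, was at 13.2 CPM on average in untreated engrafted cells, 35.9 CPM in untreated host microglia and 28.1 CPM in engrafted cells after LPS (log2 fold changes -1.38 against host microglia and 1.16 with LPS). Ptgr2, a prostaglandin reductase, was called lower after LPS in engrafted cells (-1.45). Called lower in host microglia were Pla2g4b (-2.51), Cbr1, a carbonyl reductase (-1.43), and Fam213b, a prostaglandin F synthase (-1.23). Ptgr2 was below the filter in host microglia, with 24 reads after LPS against 116 without (exact permutation p = 0.0286). Pla2g4b was below it in engrafted cells, with 12 reads against 17. Cbr1 (-0.91, edgeR adjusted p = 0.0347) and Fam213b (-0.71, edgeR adjusted p = 0.0222) were lower in engrafted cells within 2-fold. None of these 4 genes had an interaction that passed the edgeR test (adjusted p of 0.19 or more). Pla2g4b was also lower in engrafted cells than in host microglia without LPS (-1.23). Lta4h, which makes leukotriene B4, had group means of 24.2 to 29.8 CPM and was not called in any comparison.

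**Figure D4:**
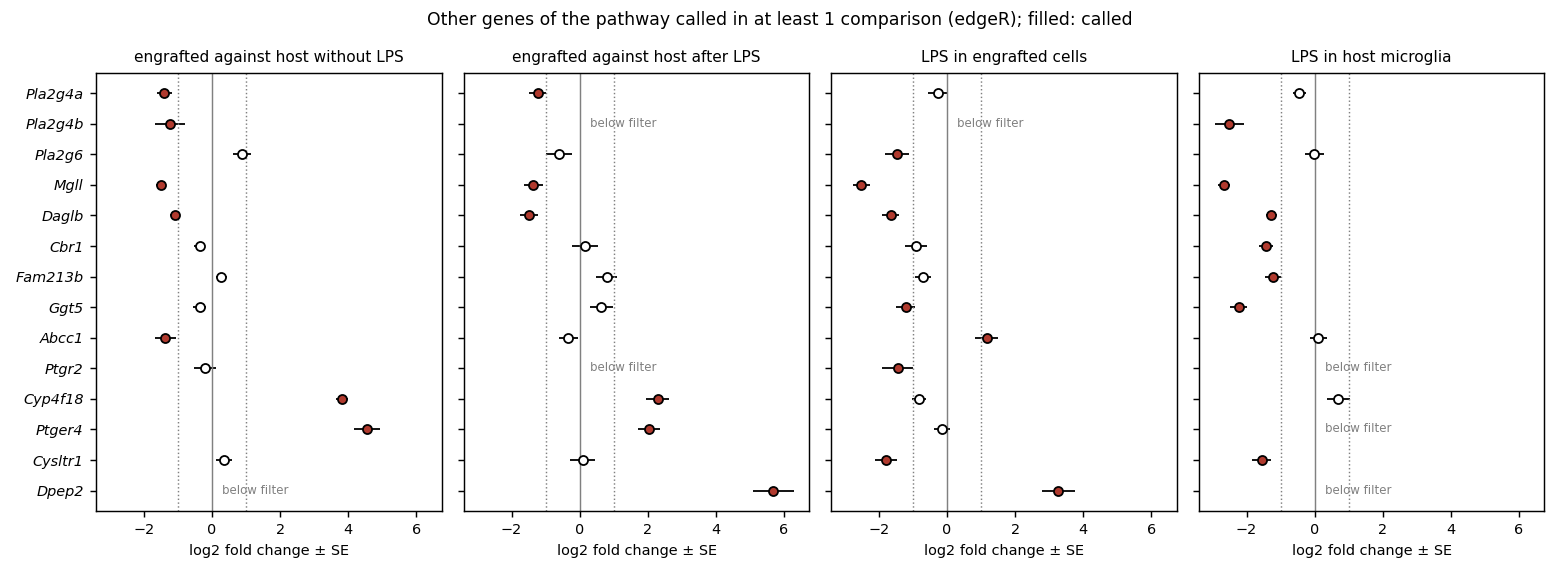
Log2 fold change (± SE, edgeR) of the 14 other pathway genes called in at least 1 of the 5 comparisons, shown for the 4 comparisons of groups. Filled points were called, and dotted lines mark a 2-fold change. Mgll, Daglb, Ggt5 and Cysltr1 are filled to the left for LPS in both populations, and Ptger4 and Cyp4f18 to the right for engrafted cells against host microglia.

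The genes whose pattern over the 16 libraries was most like each member were looked for among the 3796 genes that averaged 50 CPM or more, as a description only, since the libraries share 4 groups. Hpgd was most like Gpr34, a receptor on the microglia marker list (Pearson's r = 0.978 of log2 levels), and Kif21b (r = 0.975). Hpgds was most like Ttc28 (r = 0.987) and Tbxas1 most like Susd3 (r = 0.985). Ptgs1 was most like Golm1 (r = 0.976), Ltc4s most like Selplg (r = 0.926), and Ltb4r1 most like Slpi (r = 0.975), which encodes a protease inhibitor of leukocytes. Slpi averaged 374 CPM in engrafted cells after LPS and at most 3.80 CPM in the other groups. Alox5 and Alox5ap had no gene above r = 0.766.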

How the data were processed

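The table the authors deposited holds raw counts of reads on each gene, not normalized, from a derivation of MARS-seq. Per the study's methods and processing notes, reads were mapped with HISAT (0.1.5 in the notes) to mm9, uniquely mapped reads were kept, and HOMER counted them on the exons of 1 RefSeq model per gene, on the sense strand. No duplicate removal is named in the sources used here. Counts were tested with edgeR 4.0.16 in R 4.3.3 (TMM, quasi-likelihood test, filterByExpr with minimum count 10 and minimum total 15, Benjamini-Hochberg over all genes tested). Calls required a log2 fold change beyond 1 in either direction with adjusted p under 0.05. Each standard error is the log2 fold change divided by the root of F. The tests were checked on simulated counts. Alternatives covered the normalization, the tool (DESeq2), the filter, the libraries fitted and each library left out. CPM used TMM effective sizes over all 16 libraries.

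Replicates are separate mice. Both libraries of a mouse came from the same animal. With group means removed, these pairs correlated at 0.131, 0.00286, 0.194, 0.114, 0.016, -0.0388, 0.0531 and 0.0786 (Pearson's r, mice 1 to 8), and the mouse entered as a replicate block among the alternatives.

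The members and all gene lists were chosen with earlier results of these data known, and every member is described. Other pathway genes are named if called, and Lta4h and Pla2g2d were named after their values were seen. Genes of like pattern are those with the highest Pearson's r of log2(CPM + 1). Promoter windows came from the mm9 genome and exons from GENCODE of that build.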

Additional observations from a re-analysis of the deposited data

Results flagged for a closer look

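Of 36 groups of 4 libraries examined for a library far from the others, 2 had one, and chance gives about 1 in 20. Ptgs2 was at 11.3 CPM in the host LPS library of mouse 1, while the other host LPS libraries held 5.59 to 5.94 CPM. Hpgd was at 40.99 CPM in the engrafted LPS library of mouse 3, while the others held 19.8 to 22.8 CPM. The interaction of population and LPS passed the p threshold for Hpgds (-0.94 on the log2 scale, a larger fall in engrafted cells) and for Ltb4r1 (5.82, a larger rise in engrafted cells).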

How the results depend on the processing

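With counts unfiltered, 4 members were called between the populations after LPS (Ptges and Ptgs2 added), and with at least 10 reads in every library 1 was called there, 2 for LPS in engrafted cells and 0 for the interaction, since Hpgd and Ltb4r1 had too few reads in some library. Leaving out 1 library gave 2 to 4 members called between populations after LPS (4 without the engrafted LPS library of mouse 4), 4 to 6 for LPS in engrafted cells and 1 to 2 for the interaction, and left 2 between untreated populations and 3 for LPS in host microglia. The mouse as a replicate block changed no call of a member, with 2, 2 and 1 called in the comparisons that allow it. DESeq2, RLE size factors and a prior count of 2 (chosen after seeing the data) gave the same number of calls for LPS in engrafted cells, 4.

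Members near 0 changed sign. Tbxas1 between populations after LPS was -0.09 with library totals and -0.11 to 0.25 without 1 library. Alox5ap there was 0.0 with the mouse block and -0.19 to 0.13 without 1 library, and for LPS in host microglia -0.31 to 0.01. Ltc4s for LPS in engrafted cells was -0.05 with library totals, -0.07 with at least 10 reads in every library and -0.18 to 0.22 without 1 library. The Alox5 interaction was -0.39 to 0.12 without 1 library. None of these passed the edgeR test, and the cause was not tested. Library totals shifted the median of all genes after LPS by -0.15, and moved mean Hpgds in host LPS libraries to 143.5 CPM. Of the other fold changes under all alternatives, 625 kept their direction and side of the threshold and 3 became called, each without the engrafted LPS library of mouse 3. Depth limits Ptgs2 and Ptges, at no more than 33 reads in a library, and host Ltb4r1, at no more than 7.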
